A study of Mus musculus with 12 samples.

Results

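Axon guidance cues are proteins that attract or repel growing axons, and their receptors sit on the growth cone. The genes described here were the protein-coding rows of the deposited table named as class 3 to 7 semaphorins, plexins, neuropilins, netrins and netrin-G, Unc5 and Dcc, Slits, Robos, Eph receptors or ephrins. The name rule found 70 such genes among the 54532 of the table, 36 ligands and 34 receptors. The rule itself used no measured value, but the families were chosen with earlier results of these data known. Of the 70 genes, 68 had enough counts to be tested, among 17002 genes tested in all.

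Total RNA of dorsal root ganglia, the clusters of sensory neuron cell bodies beside the spinal cord, was sequenced from C57BL/6 mice as 12 libraries, 6 per group. Control mice had the genotype CDH5-Cre, in which the promoter of vascular endothelial cadherin drives a recombinase. The other group, here DAAO, had the genotype DAAO-TGCdh5. DAAO stands for D-amino acid oxidase, which makes hydrogen peroxide as it oxidises D-alanine. D-Alanine was the treatment of both groups. Cre appears in the titles of the DAAO samples but not in their genotype label. The labels give no age, sex or number of animals per library.

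The families work as ligand and receptor pairs. Class 3 semaphorins are secreted and mostly act through a neuropilin held together with a plexin of the A type, while classes 4 to 7 are membrane-bound and mostly bind plexins directly. Netrins act through Dcc and the Unc5 receptors, Slits through Robos, and ephrins through Eph receptor kinases on a touching cell. The ephrin on the other cell can signal in return. In sensory ganglia these genes are best known for steering axons during development, and many stay on in adult neurons, glia, fibroblasts and vessels. In whole ganglia, fewer cells of a type and less RNA per cell cannot be told apart.

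Libraries held 13227518 to 23884927 counts. Pan-neuronal markers were abundant throughout, with 16 of 16 tested and a summed level of 14000 to 21852 CPM (TMM-normalised read counts, as parts of a library scaled to one size) in control libraries and 11273 to 19115 in DAAO libraries. Controls 2 and 6 stood apart. Mitochondrial genes took 7.44% and 7.65% of their counts, against 3.32% to 5.13% in the other 10 libraries, and control 6 had the lowest total count and the lowest TMM factor (0.946). Some results are therefore also given without both. In control 2, the summed level of 10 oligodendrocyte markers was 6281 CPM, against 796 to 2301 in the other controls, and of the 68 guidance genes tested it was the lowest control for 23 and the highest for 16. Xist and Y-linked transcripts each exceeded 10 CPM in the same 5 libraries, controls 1 and 2 and DAAO 1, 2 and 6. Whether animals were pooled is not given. No label ties a library to its own animal, and the p-values reflect library-to-library spread, which may be technical.

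Of the 68 guidance genes tested, 2 rose in DAAO and none fell, with edgeR's quasi-likelihood test and a limit of 0.05 on the adjusted p. They were Epha5, a receptor kinase for ephrin-A ligands, and Efnb1, which encodes the membrane-spanning ligand ephrin-B1. Over all genes tested 0.753% were called, 0.506% as higher and 0.247% as lower, against 2.94% of the guidance genes. These shares describe families chosen with earlier results known and are not a test of them. The remaining 66 genes gave no call. Of the 68, 58 had a fold change of less than 1.5 in either direction, where 87.5% of all genes tested did. Unadjusted p-values under 0.05 were reached by 13 genes, or 19.1%, 9 higher and 4 lower, where 10.3% of all genes tested reached that level. The median log2 fold change (DAAO minus control) was 0.06 over the guidance genes and 0.00 over all genes tested.

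The promoters of both genes that rose are shown because these were the only guidance genes called. The 250 bases before the RefSeq start are given (build GRCm38.p6, gene strand, 5′ to 3′). Capitals mark the GC box (GGGCGG), the CCAAT box (CCAAT), the TATA box (TATAAA), the AP-1 site (TGANTCA) and the RUNX site (TGTGGT), each searched on both strands. None of these matches overlapped another.
Epha5, chr5:84417383-84417632, minus strand: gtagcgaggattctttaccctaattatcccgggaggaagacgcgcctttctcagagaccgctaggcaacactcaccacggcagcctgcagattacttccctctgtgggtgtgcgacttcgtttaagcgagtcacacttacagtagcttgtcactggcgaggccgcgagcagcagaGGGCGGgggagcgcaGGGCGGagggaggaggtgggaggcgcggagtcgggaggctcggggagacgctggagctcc
Efnb1, chrX:99135811-99136060, plus strand: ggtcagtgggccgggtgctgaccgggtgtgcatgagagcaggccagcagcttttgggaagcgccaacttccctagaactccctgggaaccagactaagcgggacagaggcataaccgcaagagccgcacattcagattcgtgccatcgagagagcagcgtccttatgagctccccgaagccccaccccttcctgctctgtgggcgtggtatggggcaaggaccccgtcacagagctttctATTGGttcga

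The Epha5 window held 2 GC boxes and the Efnb1 window 1 CCAAT box, on its other strand. Neither window held a TATA box, AP-1 site or RUNX site. The share of all 32851 RefSeq windows of this length with a match was 32.7% for the GC box, 33.8% for the CCAAT box, 12.4% for the TATA box, 6.75% for the AP-1 site and 14.05% for the RUNX site. Among the 76 windows of the 60 guidance genes with an entry the shares were 69.7%, 27.6%, 2.63%, 3.95% and 11.8%. GC content was 62.4% for Epha5 and 60.0% for Efnb1, against a median of 52.4% over all windows. These are matches of letters only. The RefSeq start of Efnb1 lies upstream of the gene start in the deposited table.

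Levels were compared between genes as CPM per kilobase of the length the table gives. Over all 12 libraries they ran from 40.2 ± 7.49 (SD, n = 12) for Plxnc1, the plexin that binds semaphorin 7A, down to 0.0666 ± 0.0404 for Robo3. At least 10 CPM per kilobase were held by 9 genes, 44 lay between 1 and 10, and 17 were below 1. Sema3b, a secreted semaphorin, followed at 35.7 ± 5.11, and its spread overlapped that of Plxnc1. Plxnd1, the plexin that binds semaphorin 3E, came next at 22.7 ± 5.49. Sema4f, Efna1 and Sema7a (19.8 ± 4.31, 19.7 ± 3.63 and 18.9 ± 4.09) differed from Plxnd1 and from each other by less than their SDs. Slit1, Ephb6 and Sema6d completed the 9 with 13.6 ± 4.59, 12.4 ± 2.11 and 10.3 ± 1.497 CPM per kilobase.

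Eph receptors were the lowest of the large families, with a median level of 0.898 CPM per kilobase over 14 genes, and 9 of the 14 were below 1. The median was 6.22 over 9 plexins, 5.15 over 8 ephrins and 5.01 over 20 semaphorins. The highest Eph level was that of Ephb6, a member whose kinase domain lacks catalytic activity. Epha5, at 1.91 ± 0.883 CPM per kilobase over both groups, was the highest EphA receptor. Sema3a, the cue best known for repelling sensory axons, was near the bottom at 0.0786 ± 0.0861 CPM per kilobase, with 245 counts over all libraries. Dcc was likewise low at 0.0725 ± 0.0674, with 133 counts. The 2 genes with too few counts to test, Robo3 and Epha1, had 102 and 70.

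**Figure D1:**
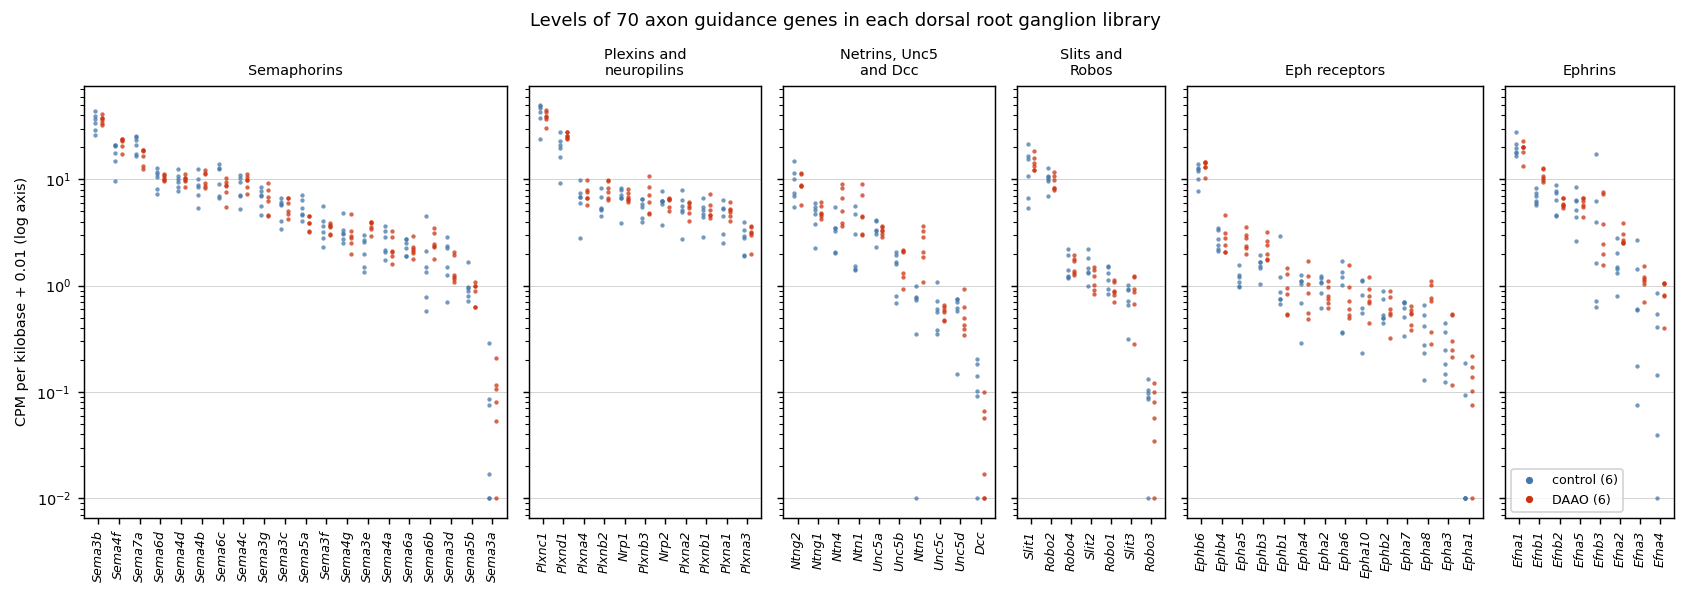
Each point is 1 library, with CPM per kilobase plus 0.01 on a log axis, for the 70 guidance genes in 6 panels by family; blue is control and red is DAAO, 6 libraries each. Plxnc1 and Sema3b stand highest, and 9 of 14 Eph receptors lie below 1 on average.

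Epha5 (ENSMUSG00000029245; chromosome 5, 84054761 to 84417382, minus strand, build GRCm38) had a lowest, median and highest level of 16.2, 19.0 and 26.0 CPM in control libraries and 33.0, 43.0 and 59.9 in DAAO libraries. The groups did not overlap, as held for 3 of the 68 guidance genes, each higher in DAAO, and for 1.45% of all genes tested (0.918% higher in DAAO). DAAO 1 was the highest library and DAAO 5 the lowest of its group. The mean rose 2.27-fold, with 19.6 ± 3.69 CPM in controls and 44.4 ± 9.82 in DAAO (SD, n = 6). On the log2 scale that was 1.18 ± 0.16 (SE; edgeR's quasi-likelihood test, adjusted p = 0.00167). The gene spans Hmgn2-ps1, a pseudogene on the other strand with 424 counts against 7044 for Epha5, whose log2 fold change was 0.65 (adjusted p = 0.630).

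Efnb1 (ENSMUSG00000031217; chromosome X, 99136130 to 99148991, plus strand) had a lowest, median and highest level of 19.6, 22.9 and 28.4 CPM in controls and 32.8, 36.3 and 43.6 in DAAO. Again no DAAO library was within the control range. The mean was 23.4 ± 3.33 CPM in controls and rose to 37.7 ± 4.72 in DAAO. On the log2 scale the rise was 0.69 ± 0.13 (SE; adjusted p = 0.0185). The call was lost without control 5 or DAAO 1 or 6 (adjusted p of 0.0552, 0.0646 and 0.0747), and over all 30 alternatives adjusted p ran from 0.000323 to 0.658. Because Efnb1 lies on the X chromosome and libraries differed in Xist, Xist was added as a term, and the log2 fold change was 0.69 (adjusted p = 0.0186).

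Without the 5 libraries that held both Xist and Y-linked transcripts, which leaves 4 controls and 3 DAAO libraries, neither gene was called. The log2 fold changes were then 0.94 for Epha5 (adjusted p = 0.271) and 0.62 for Efnb1 (adjusted p = 0.658), and 4 genes were called in the whole table. Among the libraries left, Xist alone exceeded 10 CPM in controls 3, 5 and 6 and DAAO 3. Y-linked transcripts alone did so in control 4 and DAAO 4 and 5, so the groups of that fit differed in this respect. In the other 29 alternatives Epha5 was called each time. The log2 fold change of Epha5 was 1.17 with the oligodendrocyte level as a term, 1.16 with the fibroblast level, 1.12 with the pan-neuronal level and 1.11 with the macrophage level, and it was called in each.

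Marker lists of other cells differed between the groups in both directions. These lists were chosen with earlier results of these data known. Over all genes tested 0.506% were called higher and 0.247% lower, and 50.4% of log2 fold changes were positive. Macrophage markers summed to 87.1 to 533 CPM in controls and 404 to 1941 in DAAO, with 10 of 11 log2 fold changes positive, 1 of them called, and none of the 11 at 0 in any library. Lyz2 made up most of that rise, with a mean of 113 CPM in controls and 623 in DAAO, while Mrc1 had 24.3 and 21.8. Fibroblast and nerve sheath markers summed to 2242 to 8495 and 5232 to 12601 CPM, with 12 of 13 positive and none called. Apod made up most of that rise, with means of 1957 and 4693 CPM, while Dcn had 1010 and 1225. Repair or non-myelinating Schwann cell markers summed to 1351 to 1636 and 1705 to 2143 CPM, so those groups did not overlap, and 4 of the 12 rose. Most of that sum came from Ngfr, which is also in the fibroblast list, and L1cam. Their means were 537 and 449 CPM in controls and 708 and 492 in DAAO. Markers of proprioceptors and large-diameter neurons summed to 1689 to 3484 and 1311 to 1936 CPM, and 4 of the 9 fell. All 9 log2 fold changes were negative (median -0.68). Most of that sum came from Nefh, which is also in the pan-neuronal list, with means of 1757 and 1131 CPM. The mean log2 CPM over the 9, centred over libraries, was 0.08 to 0.94 in controls and -0.62 to -0.23 in DAAO. The endothelial list, whose gene Cdh5 drove Cre, had no call among 12. Myelinating Schwann cell markers had 11 of 11 log2 fold changes negative (median -0.51) and skeletal muscle markers 10 of 10 (median -2.34), with no call in either list. The Schwann cell sums were 6337 to 22514 CPM in controls, highest in control 2, and 6572 to 7657 in DAAO. The muscle sums were 14.1 to 2930 and 6.48 to 475 CPM. Controls 4 and 5 had the highest muscle sums (2930 and 1142 CPM), while controls 1 and 6 had 17.5 and 14.1. Of the pan-neuronal markers 12 of 16 were negative and 1 fell, and 1 of 9 pericyte and smooth muscle markers rose. With the macrophage level as a term the log2 fold change of Efnb1 was 0.70 and was not called (adjusted p = 0.0635). The part of Schwann cell and neuron makeup in the rises of Epha5 and Efnb1 was not tested, apart from the pan-neuronal term.

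**Figure D2:**
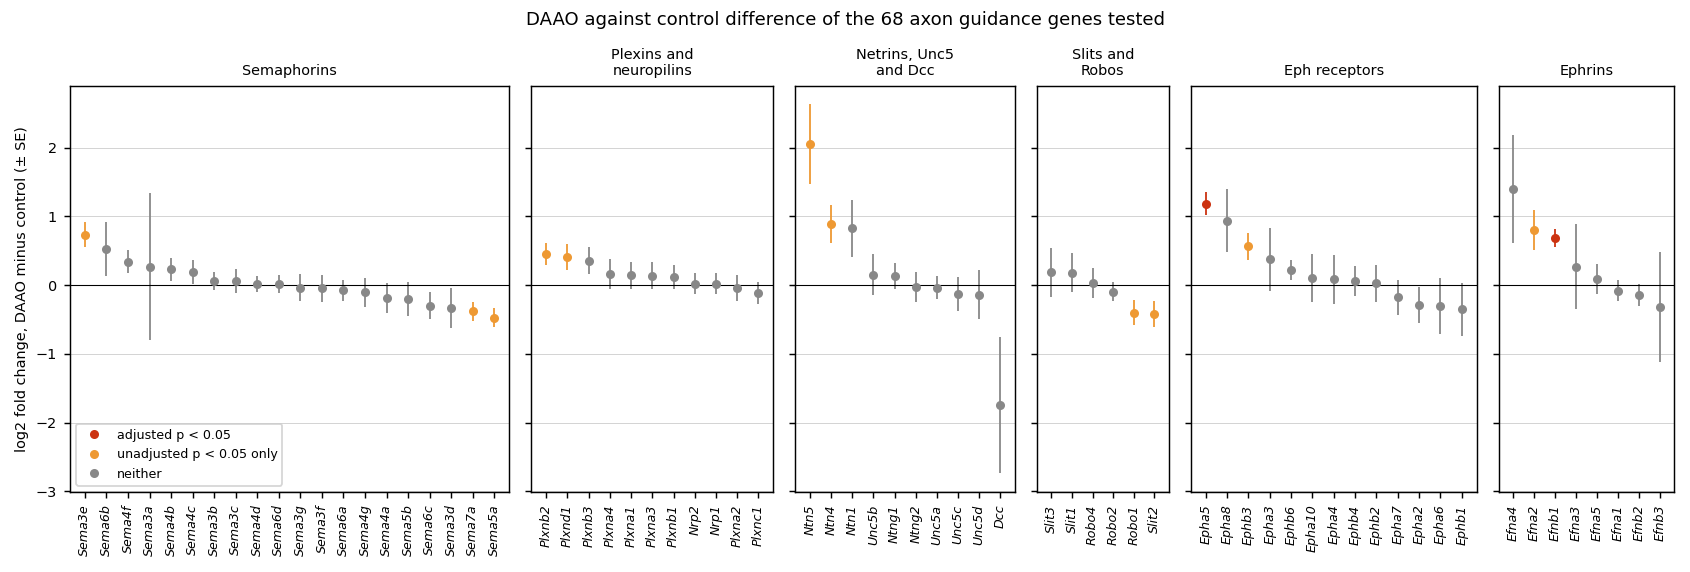
Log2 fold change, DAAO minus control, with its SE for the 68 guidance genes tested, ordered within 6 family panels. Red points passed an adjusted p under 0.05 (Epha5 and Efnb1), orange points only an unadjusted one (11 genes) and grey points neither.

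The partners of the 2 genes that rose gave no call. Of the EphA receptors tested, 8 in all, Epha5 alone was called, and the log2 fold changes of the others ran from -0.31 for Epha6 to 0.94 for Epha8 (adjusted p = 0.511 for Epha8). Efna1, the most abundant of the ephrin-A ligands that Epha5 can bind, had 37.1 ± 7.72 and 35.0 ± 5.89 CPM in control and DAAO libraries. Efna5, the next of these ligands, had 22.3 ± 7.95 and 23.7 ± 3.57. Efna2 was low, with a lowest, median and highest level of 1.70, 3.10 and 5.93 CPM in controls and 5.33, 5.55 and 8.19 in DAAO. Control 2 alone of the controls reached the DAAO range. The difference of 0.80 ± 0.29 (log2, SE) missed the threshold (adjusted p = 0.319), but passed without controls 2 and 6 (1.18, adjusted p = 0.0324) and with limma-voom (1.21, adjusted p = 0.0396), in a range up to 0.980 over its alternatives.

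EphB receptors bind ephrin-B ligands. Ephb3, a receptor kinase of this class, had a lowest, median and highest level of 6.87, 10.5 and 12.7 CPM in controls and 11.4, 14.6 and 21.2 in DAAO. Its log2 fold change was 0.57 ± 0.20 (SE, unadjusted p = 0.0108 in the quasi-likelihood test, adjusted p = 0.278). The groups overlapped only where control 2 reached 12.7. Ephb6 had 43.3 ± 8.48 and 50.4 ± 6.11 CPM (adjusted p = 0.653), and the other 3 EphB receptors had log2 fold changes of -0.35 to 0.06. Efnb2, an ephrin known from arteries, had 45.1 ± 11.9 and 40.7 ± 3.64 CPM (adjusted p = 0.853). Efnb3 ranged from 1.97 to 55.3 CPM over control libraries alone, and its group means were 16.2 ± 20.4 and 13.1 ± 8.50.

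Class 3 semaphorins gave no call among 7 genes. Sema3e, which binds plexin-D1 without a neuropilin, had the smallest p of the semaphorins. Its lowest, median and highest level was 12.3, 21.03 and 27.5 CPM in controls and 27.2, 34.2 and 37.0 in DAAO. The 2 groups touched at control 4 and DAAO 3, and each of the 6 DAAO libraries exceeded the median control. The log2 fold change was 0.73 ± 0.19 (SE, adjusted p = 0.0936 by edgeR). It passed with DESeq2 (adjusted p = 0.0210), with limma-voom (0.0190), without the filter on low counts (0.0263) and with the oligodendrocyte term (0.0459), in an adjusted p range of 0.0190 to 0.973 over its alternatives.

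Plxnd1, its receptor, had a lowest, median and highest level of 67.3, 149 and 202 CPM in controls and 175, 187 and 203 in DAAO. The DAAO libraries lay close together above the control median, while control 2 was far below the rest. The log2 difference, 0.41 ± 0.19, missed the threshold (adjusted p = 0.466) and was 0.26 without controls 2 and 6. Sema3b had 167 ± 32.4 and 174 ± 15.1 CPM (adjusted p = 0.942). The remaining class 3 genes had log2 fold changes of -0.33 to 0.26. Both neuropilins, the ligand-binding partners of class 3 semaphorins, had a log2 fold change of 0.02, with 66.2 ± 15.5 and 67.2 ± 7.04 CPM for Nrp1 (adjusted p = 0.988). Plexin A genes, the signalling partners, ran from -0.04 to 0.16, and Plxna4 had 93.5 ± 32.4 and 104 ± 19.6 CPM (adjusted p = 0.897).

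Membrane-bound semaphorins gave no call among 13 genes. Sema5a, a transmembrane cue with thrombospondin repeats, had a lowest, median and highest level of 76.2, 93.5 and 132 CPM in controls and 59.8, 72.5 and 83.6 in DAAO. All 6 DAAO libraries were below the control median, with control 6 inside their range. Its log2 fold change was -0.47 ± 0.14 (SE, adjusted p = 0.186), and it passed without controls 2 and 6 (-0.60, adjusted p = 0.0186; 0.0186 to 0.856 over its alternatives). Sema7a, which is anchored to the membrane by a lipid, had 54.9, 72.9 and 83.4 CPM in controls and 40.9, 57.6 and 61.8 in DAAO as lowest, median and highest level (log2 fold change -0.38 ± 0.14, adjusted p = 0.337). Here too 6 of 6 DAAO libraries lay below the control median, and controls 2 and 5 fell among them. Its receptor Plxnc1 had 349 ± 81.1 and 323 ± 40.6 CPM (adjusted p = 0.903).

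Class 4 semaphorins act mostly through plexin B. Sema4f, the most abundant of them per kilobase, had 92.4 ± 24.2 CPM in controls and 117 ± 13.98 in DAAO, with 5 of 6 DAAO libraries higher than the median control (log2 fold change 0.34 ± 0.17, adjusted p = 0.511). It was called with the macrophage level as a term (0.74, adjusted p = 0.0455). Sema4d, a ligand of plexin-B1, had 75.6 ± 12.9 and 76.6 ± 6.79 CPM. All 3 plexin B genes had positive log2 fold changes, from 0.11 to 0.45, and none was called. Plxnb2, a broadly expressed member, was the highest of these, with a lowest, median and highest level of 34.9, 41.1 and 64.1 CPM in controls and 49.3, 60.8 and 75.5 in DAAO (adjusted p = 0.290). Controls 3 and 6 lay within the DAAO range. Sema6d, of the class that binds plexin A, had 108 ± 22.3 and 109 ± 7.26 CPM (adjusted p = 0.995).

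**Figure D3:**
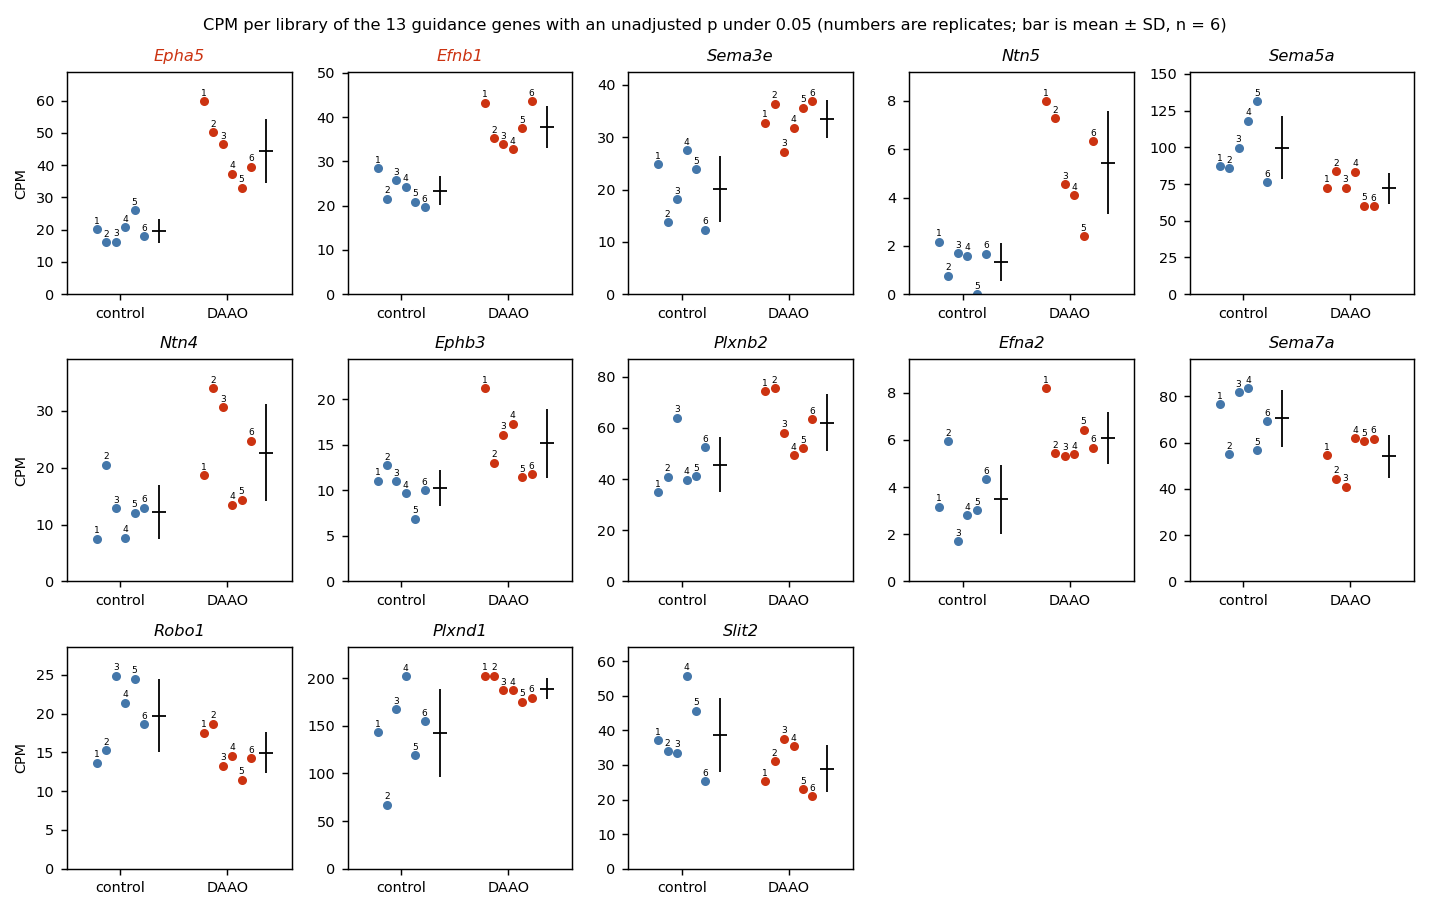
CPM in each library, numbered by replicate, for the 13 guidance genes with an unadjusted p under 0.05, ordered by p, with mean ± SD beside each group (n = 6). The groups do not overlap for Epha5, Efnb1 and Ntn5, and overlap in the other 10.

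Netrins gave no call among 5 genes, and 4 of the 5 log2 fold changes were positive, with a median of 0.82. Ntn5, a netrin known from boundary cap cells at the nerve roots of mouse embryos, had the largest fold of all guidance genes tested. Its lowest, median and highest level was 0, 1.64 and 2.16 CPM in controls and 2.397, 5.44 and 7.998 in DAAO. No DAAO library was within the control range, although control 5 had no count of it. The log2 fold change was 2.05 ± 0.58 (SE, adjusted p = 0.150 by edgeR), and DESeq2 called it (2.04, adjusted p = 0.0126; 0.0126 to 0.9999 over its alternatives). Ntn5 lies across Sec1 on the other strand, which had 280 counts against 727 and a log2 fold change of 1.06 (adjusted p = 0.571), so part of its counts is uncertain.

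Ntn4, a netrin of basement membranes that binds laminin, had 7.49, 12.5 and 20.5 CPM in controls and 13.5, 21.8 and 34.0 in DAAO as lowest, median and highest level. Control 2 was highest among the controls, and DAAO 2 and 3 among the DAAO libraries. Control 2 and DAAO 3 also held the highest summed fibroblast marker levels of their groups, but DAAO 2 (9038 CPM) was below DAAO 6 (9352 CPM). Fibroblast and macrophage levels were both higher in DAAO on average, so as terms they cannot be fully separated from the group. Apart from fits with such levels as terms, the part of cell makeup in the Ntn4 difference was not tested. The log2 fold change of 0.89 ± 0.27 (SE, adjusted p = 0.196) was 0.41 with the fibroblast level as a term and 0.22 with the macrophage level (adjusted p = 0.429 and 0.738). It passed with the replicate number as a block, without control 2 and without controls 2 and 6 (adjusted p = 0.0345, 0.0374 and 0.0301), and adjusted p ran up to 0.973 over its alternatives. Ntn1, the classic midline attractant, had 18.5 ± 11.4 CPM in controls and 32.7 ± 15.3 in DAAO (adjusted p = 0.525).

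The netrin receptors of the Unc5 and Dcc family were low and gave no call among 5 genes. Unc5a, the most abundant of them per kilobase, had 14.01 ± 2.80 and 13.6 ± 1.27 CPM (adjusted p = 0.975). Hk3 overlaps it on the other strand with 490 counts against 3079. Dcc stood at 0 to 1.55 CPM in controls and 0 to 0.718 in DAAO, with a log2 fold change of -1.75 ± 0.99 (adjusted p = 0.589). Ntng2, one of the membrane-anchored netrin-G proteins, had 37.2 ± 13.7 and 36.4 ± 8.18 CPM (adjusted p = 0.989). The transcript 6530402F18Rik overlaps it on the same strand with 2011 counts against 8046, so its counts are partly uncertain.

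Slits and Robos gave no call among 6 genes tested. Slit2, a secreted cue known to promote branching of sensory axons in rodent embryos, had 25.2, 35.5 and 55.8 CPM in controls and 20.9, 28.2 and 37.5 in DAAO as lowest, median and highest level. The groups overlapped widely, and 5 of 6 DAAO libraries lay below the control median. Its receptor Robo1 had 13.7, 20.02 and 24.9 CPM in controls and 11.5, 14.4 and 18.7 in DAAO. The log2 fold changes were -0.42 ± 0.19 for Slit2 and -0.40 ± 0.18 for Robo1 (adjusted p = 0.471 and 0.460). Slit1 had 75.5 ± 36.8 and 85.5 ± 14.5 CPM, and Robo2, the most abundant Robo, 171 ± 32.0 and 161 ± 26.4 (adjusted p = 0.910 and 0.907). Robo4, a receptor of endothelial cells, had 8.03 ± 2.31 and 8.22 ± 1.51 CPM (adjusted p = 0.987).

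Guidance genes varied less between DAAO libraries than between controls. The CV was lower in DAAO for 55 of the 68, with a median of 29.0% in controls and 19.7% in DAAO. The same held for 78.8% of all genes tested, with medians of 28.7% and 18.8%, so the guidance genes were close to the table as a whole. Control 2 was the lowest control for Plxna4 (39.6 CPM), Plxnd1, Slit1 (31.9 CPM), Sema4f (50.8 CPM), Nrp1 and Plxnc1. Without that library the log2 fold change of Nrp1 turned from 0.02 to -0.09. In DAAO, library 2 was highest for 23 of the 68 genes and library 5 lowest for 18.

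**Figure D4:**
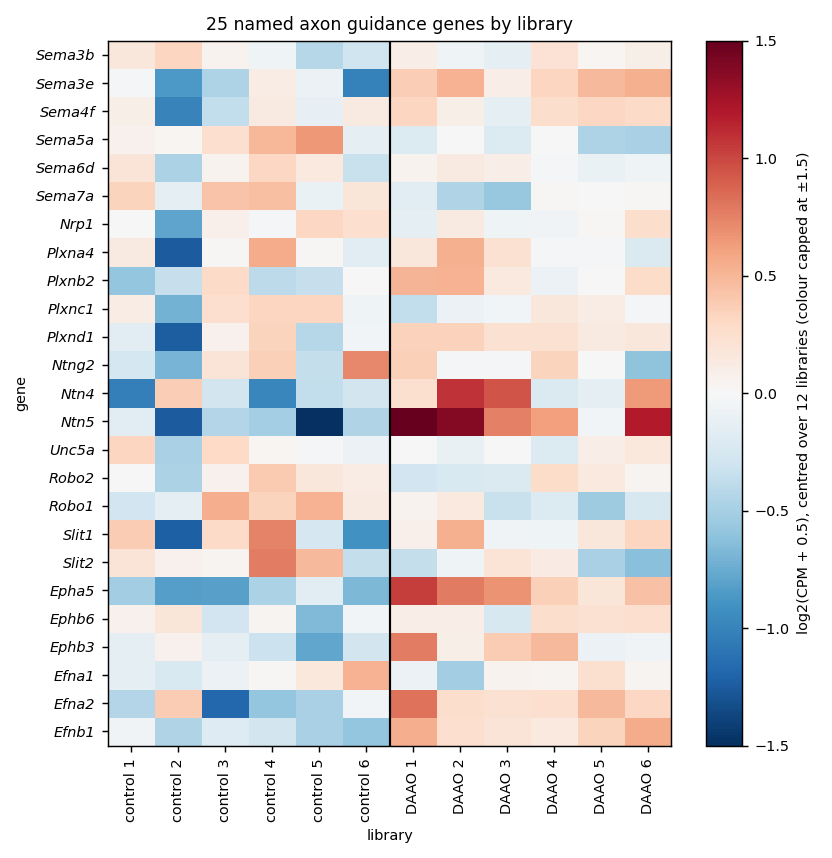
Log2(CPM + 0.5) of the 25 guidance genes named by rule, centred over the 12 libraries, with controls left and DAAO right of the black line. Epha5 and Efnb1 are above 0 in the 6 DAAO libraries and below 0 in the 6 controls, and control 2 is low for Plxna4, Plxnd1, Slit1 and Sema4f.

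Other genes of guidance pathways were examined as lists of 137 symbols, also chosen with earlier results known, of which 136 were tested. Among them 1 rose and 1 fell (1.47%), where 0.753% of all genes tested were called, 0.506% as higher and 0.247% as lower. At an unadjusted p under 0.05, 17 were higher and 8 lower, where 5.44% and 4.87% of all genes tested were. Of 30 further cues and receptors none was called, with 4 higher and 1 lower at an unadjusted p under 0.05. Over all lists DESeq2 called 3 genes (2.21%, against 2.13% of all genes tested) and limma-voom 5 (3.68%, against 1.74%). Of 25 co-receptors and adhesion partners 1 rose, and 4 were higher and 3 lower at the unadjusted level. The gene that rose was Met, the receptor of hepatocyte growth factor, which also partners plexin B. Met went from a range of 4.21 to 10.3 CPM in controls to 15.2 to 33.8 in DAAO, with means of 7.65 ± 2.32 and 23.8 ± 6.93 and a log2 difference of 1.64 ± 0.24 (SE; adjusted p = 0.00247).

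Of 81 genes of intracellular signalling 1 fell, and 9 were higher and 4 lower at the unadjusted level. Enah, an actin regulator that acts downstream of Robo and netrin receptors, ranged from 136 to 256 CPM in controls and from 105 to 126 in DAAO. The groups did not overlap for Met or for Enah, as was so for 1.45% of all genes tested. The log2 fold change of Enah was -0.67 ± 0.15 (SE, adjusted p = 0.0419), a call lost in 16 of 30 alternatives. It was lost when any library but control 2 or 6 was left out, with adjusted p-values from 0.0660 to 0.135. Met was called in 29 of its 30 alternatives and was not without the 5 libraries that held both Xist and Y-linked transcripts (1.28, adjusted p = 0.246).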

How the data were processed

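Total RNA of mouse dorsal root ganglia was sequenced as 12 libraries, 6 control and 6 DAAO. The authors deposited whole-number read counts per gene, not normalised, with gene names, positions and lengths. Per the submitters' processing notes, HISAT2 2.0.5, FastQC and DESeq2 1.20.0 were used, on GRCm38 (also given as mm10). Not given in the sources used here are the counting program, its strand setting and its annotation. Reads of overlapping genes therefore cannot be told apart. Positions of 69 of the 70 guidance genes were identical to GENCODE's GRCm38 annotation.

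The filter filterByExpr (10 counts, total of 15, by group) left 17002 of 54532 genes, holding at least 99.7% of each library's counts. After TMM scaling, DAAO was compared with control in edgeR 4.0.16 (R 4.3.3) by the two-sided quasi-likelihood test with robust fitting. Benjamini-Hochberg adjustment covered all 17002 genes, with calls below 0.05. SE is the absolute log2 fold change over the square root of F. The test was checked on simulated data, where 9 of 67 changes of 1.5-fold, 36 of 67 of 2-fold and 54 of 65 of 4-fold were called. A gene without a call may therefore still differ. Changes were simulated only in genes above a minimum mean count, and no outlying library was simulated. The shares called may thus not hold for genes of low count. Promoter sequences are from RefSeq.

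The members and lists were chosen with earlier results of these data known. Genes were named when called, when their unadjusted p was under 0.05 (up to 14), or when they had the highest level per kilobase of their family; other genes named with values were chosen after seeing them. Alternatives were other scalings, DESeq2 1.42.0, limma-voom 3.58.1, other filters, tissue levels as terms, and libraries left out. The Xist and macrophage terms and the fit without 5 libraries were chosen after seeing the data. The 66 library pairs all differed by more than sampling noise (smallest chi-square per degree of freedom 19.6).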

Additional observations from a re-analysis of the deposited data

Results flagged for a closer look

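A library lay far from the others of its group in 4 of 78 groups of 6 libraries examined, where chance gives about 1 in 20. Ephb6 stood at 39.1 CPM in DAAO 3, against 49.4 in the next lowest DAAO library. The other cases were all control 2, with 6281 CPM of summed oligodendrocyte markers (next control 2301), 22514 CPM of myelinating Schwann cell markers (next control 9881) and 1503 CPM of spinal cord astrocyte markers (next control 435).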

How the results depend on the processing

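Of 30 alternatives, Epha5 was called in 29 and Efnb1 in 25. With the other scalings (RLE, upper quartile and library totals) guidance genes called stayed at 2, and other pathway genes were 1 with library totals. Counts of all genes called (128), guidance genes called (2) and other pathway genes called (2) became 362, 4 and 3 with DESeq2, 295, 4 and 5 with limma-voom, and 648, 5 and 8 without controls 2 and 6, where the filter kept 17834 genes. Without the 5 libraries with Xist and Y-linked transcripts they were 4, 0 and 0. All genes called were 222 with the oligodendrocyte term, 198 with the Xist term and 226 at a threshold of 0.1, and other pathway genes were 1 with the muscle and 1 with the pan-neuronal term. Leaving out 1 library gave 61 (without DAAO 6) to 322 (without control 2) for all genes, 1 to 3 for guidance genes and 1 to 4 for other pathway genes. The cause was not tested.

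The replicate number as a block gave 3 guidance genes, Ntn4 being added, and 187 genes in all. Same-numbered libraries had deviation correlations of -0.08 to 0.21, with 2 of 6 over 0.1 and 3 controls closest to their own number, so the numbers are not shown to pair libraries.

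The log2 fold change turned sign in 10 of the 27 named genes, none of them called. With RLE factors it was -0.00064 for Sema6d. With library totals it was 0.023 for Ntng2 and 0.0069 for Unc5a. With DESeq2 it was -0.00086 for Sema6d. With limma-voom it was -0.073 for Sema6d. With the replicate block it was 0.027 for Ntng2. With the oligodendrocyte term it was 0.081 for Ntng2. With the fibroblast and nerve sheath term it was 0.022 for Plxnc1, 0.10 for Robo2, 0.23 for Ntng2 and 0.055 for Efna1. With the pan-neuronal term it was 0.025 for Robo2, 0.17 for Ntng2 and 0.032 for Efna1. Without controls 2 and 6 it was -0.16 for Sema6d, -0.068 for Plxna4, -0.16 for Slit1, -0.062 for Nrp1 and 0.024 for Ntng2. Without those 5 libraries it was -0.067 for Sema6d, -0.060 for Plxna4, -0.076 for Slit1 and -0.19 for Nrp1. With the macrophage term it was 0.087 for Plxnc1, 0.20 for Robo2, 0.38 for Ntng2, 0.084 for Efna1 and 0.011 for Unc5a. With 1 library left out it ran from -0.12 to 0.019 for Unc5a, -0.065 to 0.082 for Sema6d, -0.092 to 0.077 for Nrp1, -0.14 to 0.14 for Ntng2, -0.026 to 0.15 for Sema3b and -0.14 to 0.029 for Efna1.

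Reads of overlapping genes, low counts (Ntn5, Dcc, Sema3a), the spread of control 2 and the lack of labels for animals limit what these libraries resolve.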
